A study of Homo sapiens with 12 samples.

Results

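NPTX1, NPTX2 and NPTXR, the genes of the neuronal pentraxins, and NWD2, a gene for a large NTPase-like protein with WD repeats, were followed through RNA-seq libraries of 2 neuroblastoma cell lines given the METTL3 inhibitor STM2457. They were taken by gene name, 4 of the 19923 genes in the count files. NPTX1 and NWD2 were chosen on their own readout, a higher level after STM2457 in one line and a lower level in the other, so their values are described here without a test. NPTX2 and NPTXR were included as the relatives of NPTX1, and their fitted changes are given with a test.

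SK-N-BE2 and NGP are established human neuroblastoma lines that the labels call MYCN-amplified and wild type in genotype. SK-N-BE2 cells received 12 µM STM2457 and NGP cells 1 µM, and the controls of each line received the solvent DMSO. RNA was taken after 6 days, giving 3 libraries in each of 4 groups. STM2457 blocks the catalytic site of METTL3, the enzyme that writes most N6-methyladenosine on messenger RNA, and the study asked how this bears on neuroblastoma growth and differentiation. Line and dose go together in this design, and so does a folder named in the file headers, taken here as a possible batch. A difference between the lines therefore cannot be told apart from a difference in dose or batch. The labels do not say that the replicates were separate cultures, so the tests measure only the spread between these libraries.

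Neuronal pentraxins are secreted or membrane-bound proteins that form multimers through a shared C-terminal pentraxin domain and gather AMPA-type glutamate receptors at excitatory synapses. NPTX1 and NPTX2 are secreted, NPTX2 (also called Narp) is induced by neuronal activity, and NPTXR carries a transmembrane anchor that holds mixed pentraxin complexes at the cell surface. NWD2 belongs to the STAND class of NTPases, whose best known member with WD repeats is the apoptosome protein APAF1. What NWD2 does is little described.

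On GRCh38, as the files give it, NPTX1 lies at chr17:80466834-80477843 on the minus strand, spans 11.01 kb and has 7020 exon bases. NPTX2 lies at chr7:98617285-98629869 on the plus strand, spans 12.585 kb and has 3029 exon bases. NPTXR lies at chr22:38818452-38844028 on the minus strand, spans 25.577 kb and has 5830 exon bases. NWD2 lies at chr4:37244743-37449463 on the plus strand, spans 204.721 kb and has 7800 exon bases. The canonical transcripts of the 3 pentraxin genes each have 5 exons and that of NWD2 has 7. None of the 4 shares exon bases with another gene of GENCODE 44 on either strand, so counting without strand had no annotated neighbour to draw reads from.

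The start regions of NPTX2 and NWD2, the members matched in the table of start regions used here, are shown to set their letters beside the values that follow, while those of NPTX1 and NPTXR were not analysed here. They come from RefSeq on GRCh38.p14, cover 250 bases before the start and 50 from it, and are printed 5′ to 3′ on the plus strand. Capitals mark each match to GGGCGG, the core of a GC box, on either strand (a match on the minus strand reads CCGCCC). The NPTX2 region is chr7:98617035-98617334 and the NWD2 region is chr4:37244493-37244792.
NPTX2: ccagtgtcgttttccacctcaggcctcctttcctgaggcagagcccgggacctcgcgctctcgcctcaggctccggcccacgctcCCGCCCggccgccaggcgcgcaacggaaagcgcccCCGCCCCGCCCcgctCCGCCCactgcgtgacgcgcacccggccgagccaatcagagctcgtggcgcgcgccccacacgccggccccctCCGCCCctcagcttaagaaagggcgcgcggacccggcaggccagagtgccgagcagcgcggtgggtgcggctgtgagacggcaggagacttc
NWD2: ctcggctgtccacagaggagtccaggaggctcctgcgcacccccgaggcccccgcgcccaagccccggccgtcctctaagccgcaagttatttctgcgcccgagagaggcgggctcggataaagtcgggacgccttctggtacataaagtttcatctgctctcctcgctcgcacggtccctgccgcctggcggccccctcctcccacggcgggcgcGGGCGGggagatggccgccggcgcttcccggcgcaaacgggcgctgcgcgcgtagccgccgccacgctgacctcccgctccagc
The NPTX2 region held 5 matches to GGGCGG, all on the minus strand, and the NWD2 region held 1, on the plus strand. Of the 35116 start regions in the table, 45.0% held this motif. Neither region held CACGTG (the canonical E-box bound by MYCN), CAGCTG (another E-box), TGACGTCA (the cyclic AMP response element), TGANTCA (the AP-1 site), TATAAA or GGAATG (a TEAD site), searched on both strands. The shares of all regions that held these were 7.26%, 17.9%, 1.85%, 7.71%, 11.5% and 14.0% in that order. GC made up 74.3% of the NPTX2 region and 71.7% of the NWD2 region, against a median of 58.7%. A match is a description of the letters only, and a missing match says nothing of the factor.

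Each library held between 47242379 and 58159937 counted reads. MYCN itself ran at 3970 to 4434 CPM (counts scaled to a library size of 1e+06 reads, with TMM) as group means, and 8 of 9 neuroblastoma markers reached 1 CPM in every group. TH, which catalyses the first step of catecholamine synthesis, was near absent in NGP (0.512 CPM in DMSO, against 234 in SK-N-BE2). NGP DMSO replicate 1 stood apart from the other controls of its line, with a chi-square of 92.6 per degree of freedom against NGP DMSO replicate 2.

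NPTX1 showed the widest swing of the 4 genes. In SK-N-BE2 it was counted 14, 10 and 18 times in the DMSO libraries and 337, 265 and 327 times after STM2457. As CPM these were 0.245, 0.201 and 0.344, against 6.22, 5.18 and 6.22. In NGP the counts were 2839, 2708 and 3188 in DMSO and 110, 90 and 76 after STM2457, or 56.4, 53.0 and 62.0 CPM against 2.35, 1.93 and 1.5. Every treated SK-N-BE2 library was above every SK-N-BE2 control, and every treated NGP library was below every NGP control.

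The NPTX1 group means were 0.263 ± 0.0732 CPM in SK-N-BE2 DMSO, 5.87 ± 0.605 in SK-N-BE2 STM2457, 57.1 ± 4.56 in NGP DMSO and 1.92 ± 0.425 in NGP STM2457 (SD, n = 3 each). STM2457 thus went with a mean 22.3-fold higher in SK-N-BE2 and 29.7-fold lower in NGP. The fitted log2 fold changes were 4.43 (SE 0.25) and -4.92 (SE 0.18), and they differed by 9.36 (SE 0.27). The order of the lines turned over with treatment. NGP held 217-fold more NPTX1 than SK-N-BE2 in DMSO, whereas after STM2457 SK-N-BE2 held 3.05-fold more than NGP. From the highest, the order was NGP DMSO, SK-N-BE2 STM2457, NGP STM2457 and SK-N-BE2 DMSO, and no neighbours in this order overlapped. In bulk RNA, fewer cells with a transcript and less transcript per cell cannot be told apart.

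NWD2 had the same pair of directions at lower levels. In SK-N-BE2 it was counted 4, 0 and 4 times in DMSO and 32, 44 and 20 times after STM2457, which is 0.0699, 0 and 0.0765 CPM against 0.591, 0.859 and 0.381. In NGP the counts were 846, 1617 and 1399 in DMSO and 284, 239 and 227 after STM2457, or 16.8, 31.6 and 27.2 CPM against 6.07, 5.11 and 4.48. The groups did not overlap within either line, although NGP DMSO replicate 1 lay well below the other 2 controls.

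The NWD2 means were 0.0488 ± 0.0424 CPM in SK-N-BE2 DMSO, 0.610 ± 0.240 in SK-N-BE2 STM2457, 25.2 ± 7.62 in NGP DMSO and 5.22 ± 0.800 in NGP STM2457 (SD, n = 3 each). The mean was 12.5-fold higher after STM2457 in SK-N-BE2 and 4.83-fold lower in NGP. The fitted log2 fold changes were 3.51 (SE 0.67) and -2.30 (SE 0.24), with a difference of 5.81 (SE 0.63). Without NGP DMSO replicate 1 the NGP value was -2.52. The SK-N-BE2 ratio rests on 96 reads against 8, a control level at the limit of what these libraries can show. Unlike NPTX1, NWD2 kept the order of the lines: NGP held 517-fold more in DMSO and still 8.55-fold more after STM2457.

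**Figure D1:**
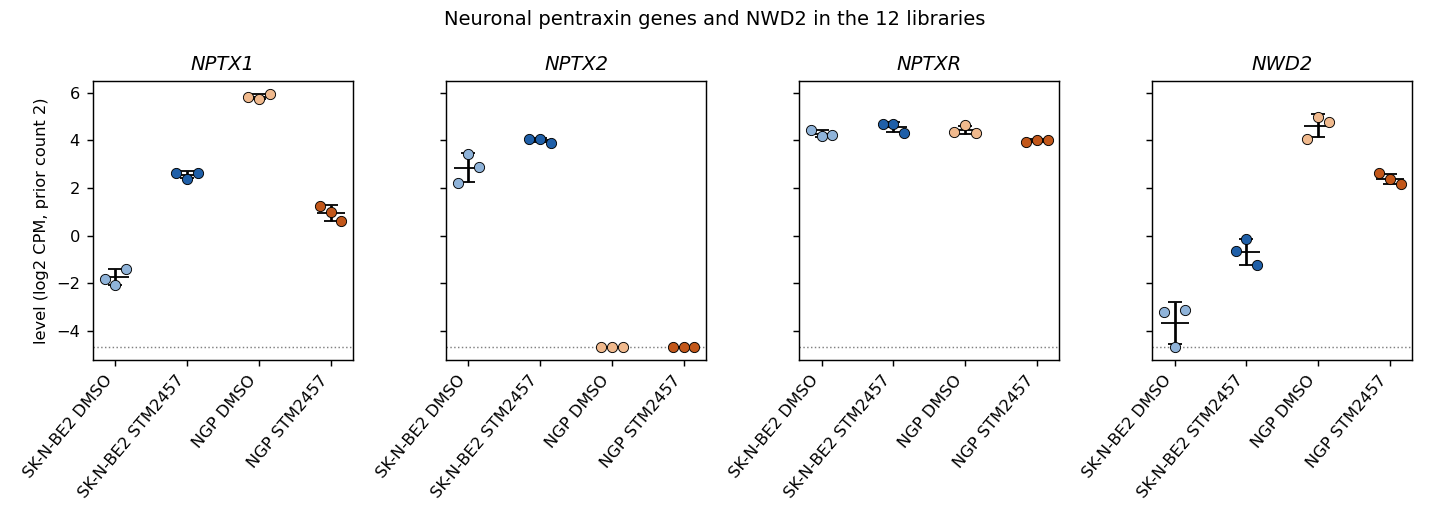
Level of each gene in the 12 libraries as log2 CPM with a prior count of 2 (vertical axis) by group (horizontal axis). Points are libraries, bars are the mean and SD of 3, and the dotted line is where a library with 0 reads falls. NPTX1 and NWD2 go up with STM2457 in SK-N-BE2 and down with it in NGP, NPTX2 has 0 reads in all 6 NGP libraries, and NPTXR stays between 15.4 and 26.0 CPM in all 12.

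NPTX2, the activity-induced secreted pentraxin, rose about 2-fold in SK-N-BE2 and was not detected in NGP. The SK-N-BE2 counts were 262, 538 and 388 in DMSO and 899, 857 and 783 after STM2457, or 4.58, 10.8 and 7.42 CPM against 16.6, 16.7 and 14.9. The treated libraries all lay above the controls, which spread more widely among themselves. The means were 7.61 ± 3.13 and 16.1 ± 1.02 CPM (SD, n = 3 each). The log2 fold change was 1.04 (SE 0.22, edgeR quasi-likelihood adjusted p = 0.00131), beside 26.9% of all 14013 genes tested in this line called higher and 27.8% called lower.

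In NGP no NPTX2 read was counted in any of the 6 libraries, which by counting error alone allows at most 0.0583 to 0.0642 CPM per library (3 reads). In DMSO NPTX2 was therefore at least 380-fold higher in SK-N-BE2 than in NGP (1188 reads against 0, set against 3 reads over the group; edgeR adjusted p = 1.09e-07). After STM2457 it was at least 773-fold higher (2539 reads against 0). Between the DMSO groups 35.7% of 14731 genes were called higher in SK-N-BE2 and 35.4% lower, so a call in this comparison is common. No response of NPTX2 in NGP could be measured, and the responses of the lines were not compared for it.

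NPTXR, the membrane-anchored member, was the steadiest of the 4. Its SK-N-BE2 counts were 1239, 898 and 966 in DMSO and 1377, 1332 and 1051 after STM2457, or 21.7, 18.1 and 18.5 CPM against 25.4, 26.0 and 20.0. Its NGP counts were 1036, 1272 and 1010 in DMSO and 720, 763 and 805 after STM2457, or 20.6, 24.9 and 19.6 CPM against 15.4, 16.3 and 15.9. The groups overlapped in SK-N-BE2, while in NGP every treated library was below every control.

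In SK-N-BE2 the NPTXR means were 19.4 ± 1.97 and 23.8 ± 3.31 CPM (SD, n = 3 each), a log2 fold change of 0.26 (SE 0.12) that missed the threshold (edgeR adjusted p = 0.0808). It passed when DMSO replicate 1 was left out (0.34, adjusted p = 0.0305) and when STM2457 replicate 3 was left out (0.37, adjusted p = 0.0263). In NGP the means were 21.7 ± 2.80 and 15.9 ± 0.473 CPM, and NPTXR fell by 0.48 on the log2 scale (SE 0.13, edgeR adjusted p = 0.0171). In that line 22.2% of 13610 genes were called lower and 19.4% higher. The NGP call was lost without DMSO replicate 2 (-0.37, adjusted p = 0.0501) and without any one STM2457 library (adjusted p = 0.0752, 0.0540 and 0.0679 for replicates 1, 2 and 3).

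The responses of NPTXR in the lines differed by 0.75 on the log2 scale (SE 0.18, edgeR adjusted p = 0.00704), SK-N-BE2 over NGP, and this passed the threshold without any one of the 12 libraries (highest adjusted p = 0.0231). In the same test 17.0% of 14731 genes were called higher in SK-N-BE2 and 13.9% lower. At baseline the lines were not called different (log2 -0.16, SE 0.13, adjusted p = 0.276), with a normal 95% interval of -0.41 to 0.09. From the highest, the order of the NPTXR means was SK-N-BE2 STM2457, NGP DMSO, SK-N-BE2 DMSO and NGP STM2457. The first 3 overlapped with their neighbours, and NGP STM2457 lay below all libraries of the other groups.

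Per exon length, which allows genes to be compared with each other, the make-up of the neuronal pentraxin transcripts differed between the 4 groups. In SK-N-BE2 DMSO, NPTXR (10.2 TPM, reads per exon length scaled to the same sum in each library) and NPTX2 (7.71 TPM) led with overlapping ranges, and NPTX1 was at 0.114 TPM. With STM2457, NPTX2 (17.7 TPM) stood above NPTXR (13.6 TPM) in every library, and NPTX1 reached 2.77 TPM. In NGP DMSO, NPTX1 led with 33.6 TPM, ahead of NPTXR at 15.5 TPM. In NGP STM2457, NPTXR led with 9.66 TPM and NPTX1 was at 0.972 TPM. NWD2 ran at 0.0190, 0.262, 13.6 and 2.37 TPM in the same group order.

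As shares of the 3 pentraxin transcripts per length, NPTX1 made up 0.652% ± 0.219 in SK-N-BE2 DMSO, 8.24% ± 1.36 in SK-N-BE2 STM2457, 68.6% ± 4.33 in NGP DMSO and 9.15% ± 2.00 in NGP STM2457 (SD, n = 3 each). NPTX2 held 41.8% ± 12.4 and 52.0% ± 1.15 in the SK-N-BE2 groups. NPTXR held 57.6% ± 12.3, 39.8% ± 2.35, 31.4% ± 4.33 and 90.8% ± 2.00 in the 4 groups. Untreated NGP was thus a mainly NPTX1 line and treated NGP a mainly NPTXR line, while SK-N-BE2 divided its transcripts between NPTX2 and NPTXR in both conditions. Because NPTX1 enters the sum and was chosen on its response, these shares are given with no test.

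The summed pentraxin level was 18.0 ± 2.55 TPM in SK-N-BE2 DMSO and 34.0 ± 4.21 with STM2457, and 49.1 ± 6.15 TPM in NGP DMSO and 10.6 ± 0.260 with STM2457 (SD, n = 3 each). The ranges were 16.0 to 20.9, 29.2 to 36.8, 42.0 to 52.9 and 10.5 to 10.9 TPM, and none overlapped.

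**Figure D2:**
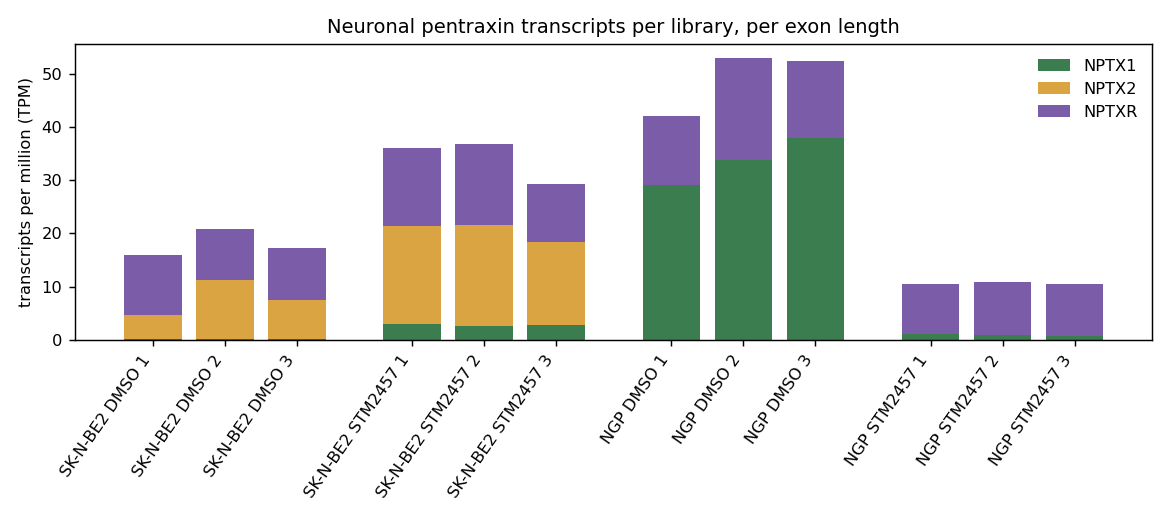
Stacked bars give the level of NPTX1, NPTX2 and NPTXR in TPM (vertical axis) in each of the 12 libraries (horizontal axis, with the replicate number). The summed level is 29.2 to 36.8 TPM in treated SK-N-BE2 against 16.0 to 20.9 in its controls, and 10.5 to 10.9 TPM in treated NGP against 42.0 to 52.9, where the NPTX1 segment is nearly gone.

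Among all 12952 genes tested in both lines, 352 (2.72%) rose with STM2457 in SK-N-BE2 but fell in NGP, the pattern for which NPTX1 and NWD2 were picked, and 291 (2.25%) were called the opposite way. Markers of other cell types had a higher summed level after STM2457 in both lines. Their summed level over 15 genes ran from 50.1 to 64.7 CPM in SK-N-BE2 DMSO, 84.0 to 87.5 in SK-N-BE2 STM2457, 64.0 to 78.5 in NGP DMSO and 267 to 290 in NGP STM2457. Of the 8 tested in SK-N-BE2, 4 were called higher and 1 lower, and of the 6 tested in NGP, 2 were called higher and 1 lower. Over all genes 26.9% were called higher and 27.8% lower in SK-N-BE2 (19.4% and 22.2% for NGP), and with so few markers nothing is read from these counts. GAD1, the GABA-synthesising enzyme of inhibitory neurons, had the directions of NPTX1 (log2 1.49, adjusted p = 2.88e-05 in SK-N-BE2; -2.55, adjusted p = 0.000692 in NGP), while its partner GAD2 had 0 reads in all libraries. The rise of the sum in NGP came mostly from the mesenchymal genes COL1A1 (2.04, adjusted p = 9.71e-06) and PDGFRB (2.23, adjusted p = 9.72e-06), which also rose in SK-N-BE2. COL1A2, the other mesenchymal gene listed, went from 9 to 6 reads in NGP. In SK-N-BE2 it went from 2 to 4 reads, and it was tested in neither line. PTPRC, a leukocyte marker, had 0 reads in all NGP libraries but rose in SK-N-BE2 from 0.328 to 1.17 CPM (52 to 184 reads; 1.79, adjusted p = 0.000663). The other leukocyte markers listed did not share this. CD68 was not called in SK-N-BE2 (3.84 to 4.28 CPM, log2 0.12, edgeR adjusted p = 0.536). CD3E went from 14 to 10 reads there and was not tested. CD3E had 0 reads in all NGP libraries, SLC17A6 had 0 in SK-N-BE2 DMSO, and CDH1 went from 0 to 12 reads in SK-N-BE2 and was not tested. The part of these markers in the pentraxin values was not tested.

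**Figure D3:**
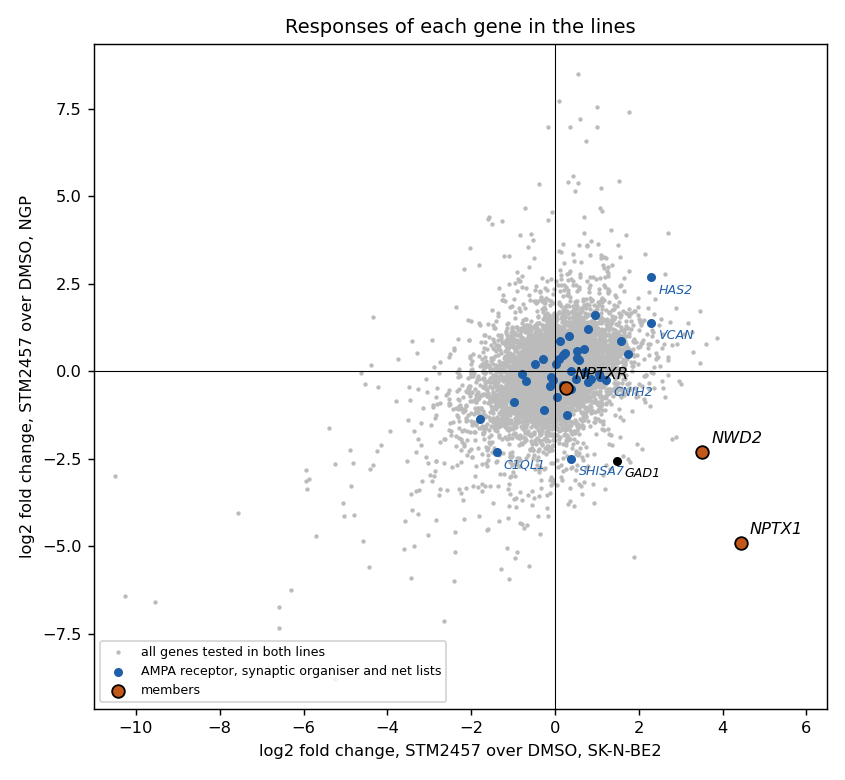
Each point is a gene tested in both lines, with its log2 fold change in SK-N-BE2 (horizontal axis) and in NGP (vertical axis). NPTX1 (4.43 and -4.92) and NWD2 (3.51 and -2.30), chosen for this, lie at the lower right, NPTXR (0.26 and -0.48) lies near the centre, and blue points are genes of the AMPA receptor, synaptic organiser and perineuronal net lists, with GAD1 in black.

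Of the wider pentraxin-domain family of 10 genes, 6 were tested in SK-N-BE2, where 3 were called higher (NPTX1, NPTX2 and PTX3) and 1 lower (ADGRG6), with a median log2 fold change of 0.65. In NGP 5 were tested, and 3 were called lower (NPTX1, NPTXR and ADGRD1) and 0 higher, with a median of -0.52. Over all genes tested, 26.9% were called higher and 27.8% lower in SK-N-BE2 (19.4% and 22.2% for NGP), and the medians were -0.02 and -0.03. NPTX1 was chosen on these responses, so the counts that include it are descriptions.

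PTX3, a long pentraxin of innate immunity, rose in SK-N-BE2 from 0.932 ± 0.270 to 2.66 ± 0.507 CPM (SD, n = 3 each; log2 1.47, SE 0.27, edgeR adjusted p = 0.000466). In NGP it had 8 reads over the DMSO libraries and 0 after STM2457 and was not tested. PTX3 thus joined NPTX2 as a pentraxin with a measurable level in SK-N-BE2 and almost none in NGP. The classical short pentraxins CRP and APCS, made by the liver, had 0 reads in all 12 libraries, and PTX4 had 6, 21, 2 and 7 reads over the 4 groups.

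ADGRG6 and ADGRD1 are adhesion G protein-coupled receptors with a pentraxin-like domain. ADGRG6 fell in SK-N-BE2 from 4.24 ± 1.5 to 2.1 ± 0.251 CPM (log2 -1.06, SE 0.24, edgeR adjusted p = 0.00242). In NGP its value was -0.64 (adjusted p = 0.103), and without NGP DMSO replicate 1 it passed at -0.84 (adjusted p = 0.0170). ADGRD1 fell in NGP from 7.60 ± 0.141 to 5.40 ± 0.429 CPM (log2 -0.52, SE 0.14, edgeR adjusted p = 0.0187), a call lost without DMSO replicate 3, STM2457 replicate 2 or STM2457 replicate 3 (adjusted p = 0.0562, 0.0698 and 0.0850). Its SK-N-BE2 value was -0.39 (adjusted p = 0.155). SVEP1, a large extracellular matrix protein, was tested only in NGP (0.88, adjusted p = 0.216), and it passed there without DMSO replicate 2 (1.62, adjusted p = 0.0329).

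The tested relatives of NWD2 among NTPases with WD repeats, APAF1 and TEP1, had values above 0 in both lines. APAF1, the core of the apoptosome, rose in SK-N-BE2 (10.3 ± 1.07 to 18.2 ± 2.76 CPM, SD, n = 3 each; log2 0.78, SE 0.13, edgeR adjusted p = 0.000193) and was at 0.41 in NGP (adjusted p = 0.103, or 0.21 and 0.0331 without DMSO replicate 1). TEP1, a telomerase- and vault-associated protein, rose in SK-N-BE2 (15.6 ± 1.25 to 21.5 ± 0.811 CPM; log2 0.42, SE 0.10, edgeR adjusted p = 0.00274) and was at 0.25 in NGP (adjusted p = 0.265). NWD1 had 12, 4, 5 and 0 reads over the 4 groups. Leaving out NWD2, whose responses were the reason for choosing it, both tested genes of this list were called higher in SK-N-BE2 and 0 were called in NGP. Over all genes 26.9% were called higher and 27.8% lower in SK-N-BE2 (19.4% and 22.2% for NGP), and with so few genes nothing is read from these counts. For APAF1, 9.48% of exon bases lie opposite ANKS1B, and its count is uncertain.

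AMPA receptor subunits and their auxiliary proteins are what neuronal pentraxins gather. Of 18 listed, 14 were tested in SK-N-BE2, with 5 called higher, 0 lower and a median log2 fold change of 0.36. In NGP 13 were tested, with 2 called higher, 2 lower and a median of -0.21. The shares over all genes were 26.9% higher and 27.8% lower in SK-N-BE2 (19.4% and 22.2% for NGP), so the NGP counts are near or below the background. GRIA4, a receptor subunit, rose in SK-N-BE2 from 120 ± 14.0 to 174 ± 2.23 CPM (log2 0.50, edgeR adjusted p = 0.000385). SYNDIG1, a protein of developing synapses that binds AMPA receptors, rose there by 0.52 (adjusted p = 0.00122). CNIH2, an auxiliary subunit, rose by 1.22 (adjusted p = 2.63e-06), but 11.3% of its exon bases lie opposite other genes and its count is uncertain.

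In NGP, SHISA7, an auxiliary protein, fell from 6.76 ± 1.24 to 1.21 ± 0.0342 CPM (log2 -2.50, edgeR adjusted p = 5.49e-05). CNIH3, another auxiliary subunit, fell by 1.26 (adjusted p = 0.0143), a call lost without STM2457 replicate 1 (-1.04, adjusted p = 0.0515). GRIA3, a receptor subunit, rose by 1.00 in NGP (adjusted p = 0.00918) and by 0.33 in SK-N-BE2 (adjusted p = 0.0425). The SK-N-BE2 call of GRIA3 was lost without DMSO replicate 2 or 3 or STM2457 replicate 2 or 3 (adjusted p = 0.0806, 0.0900, 0.104 and 0.159), with the replicate block (0.0599) and in the joint fit of all 12 libraries (0.113).

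Of 5 genes that process or bind pentraxins, 2 were tested. ADAM17, the protease that sheds NPTXR, was not called in SK-N-BE2 (log2 -0.09, adjusted p = 0.384) or NGP (0.23, adjusted p = 0.298). RCN2, a calcium-binding protein of the secretory pathway reported to bind neuronal pentraxins, rose from 101 ± 6.45 to 127 ± 2.54 CPM in SK-N-BE2 (log2 0.30, edgeR adjusted p = 0.00614). In NGP it rose from 101 ± 6.18 to 153 ± 9.17 CPM (0.58, adjusted p = 0.00186). The complement genes C1QA, C1QB and C1QC were too low to test.

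Perineuronal nets are extracellular lattices around neurons to which NPTX2 is known to attach. Of 12 listed components, 10 were tested in SK-N-BE2, with 6 called higher, 3 lower and a median log2 fold change of 0.79. In NGP 8 were tested, with 2 called higher, 1 lower and a median of -0.09. All genes gave 26.9% higher and 27.8% lower in SK-N-BE2 (19.4% and 22.2% for NGP). VCAN, the proteoglycan versican, rose from 16.9 ± 2.72 to 84.2 ± 1.58 CPM in SK-N-BE2 (log2 2.28, edgeR adjusted p = 4.07e-09) and from 123 ± 32.8 to 326 ± 28.6 in NGP (1.39, adjusted p = 0.000811). HAS2, a hyaluronan synthase, rose in both lines from under 1 CPM (2.30, adjusted p = 0.000764 in SK-N-BE2; 2.68, adjusted p = 0.00413 in NGP). HAPLN3, a link protein, fell in both (-1.79, adjusted p = 4.43e-05; -1.36, adjusted p = 0.00566). NCAN, neurocan, rose in SK-N-BE2 (1.08, adjusted p = 0.0202), a call lost without STM2457 replicate 1 (0.97, adjusted p = 0.0750).

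Other synaptic organisers, proteins that align the sides of a synapse, held calls in both directions in both lines. Of 35 listed, 22 were tested in SK-N-BE2, with 8 called higher, 3 lower and a median log2 fold change of 0.29. In NGP 27 were tested, with 9 called higher, 5 lower and a median of 0.11. Against these stand 26.9% of all genes called higher and 27.8% lower in SK-N-BE2 (19.4% and 22.2% for NGP). LRRTM1, a postsynaptic adhesion protein, rose from 8.81 ± 0.623 to 26.7 ± 2.61 CPM in SK-N-BE2 (log2 1.56, edgeR adjusted p = 1.34e-07) and by 0.85 in NGP (adjusted p = 0.00273). C1QL1, a secreted synaptic protein of the C1q family, fell in both lines (-1.39, adjusted p = 0.00185 with overlapping libraries in SK-N-BE2; -2.31, adjusted p = 0.000524 in NGP). SLITRK1 rose in SK-N-BE2 (1.20, adjusted p = 0.00229) and had 0 reads in NGP, and SLITRK6 rose in NGP (1.62, adjusted p = 0.000177), both being synaptic adhesion proteins. In SK-N-BE2, SLITRK6 was at 0.95 and just missed the threshold (adjusted p = 0.0563). It passed there in several alternatives, such as the joint fit of all 12 libraries (0.99, adjusted p = 0.0220), but reached 0.171 at the highest.

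NPTX2 is itself an activity-regulated gene. Of 15 such genes 14 were tested in SK-N-BE2, with 3 called higher (NPTX2, HOMER1 and NR4A2), 8 lower and a median log2 fold change of -0.71. In NGP 11 were tested, with 4 called higher, 2 lower and a median of 0.18. The background was 26.9% of all genes higher and 27.8% lower in SK-N-BE2 (19.4% and 22.2% for NGP). EGR1, an immediate-early transcription factor, fell from 449 ± 29.8 to 102 ± 3.81 CPM in SK-N-BE2 (log2 -2.17, edgeR adjusted p = 8.74e-10) and rose from 8.21 ± 4.52 to 62.9 ± 14.0 CPM in NGP (2.91, adjusted p = 0.000653). FOS, a component of AP-1, fell by 2.02 in SK-N-BE2 (adjusted p = 3.51e-09) and rose by 3.53 in NGP (adjusted p = 0.000188). These directions are the reverse of those of NPTX1. ARC, a synaptic plasticity protein, fell by 1.84 in SK-N-BE2 (adjusted p = 2.65e-07) and by 1.06 in NGP (adjusted p = 0.000978), and FOSB rose by 2.44 in NGP (adjusted p = 0.00277).

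**Figure D4:**
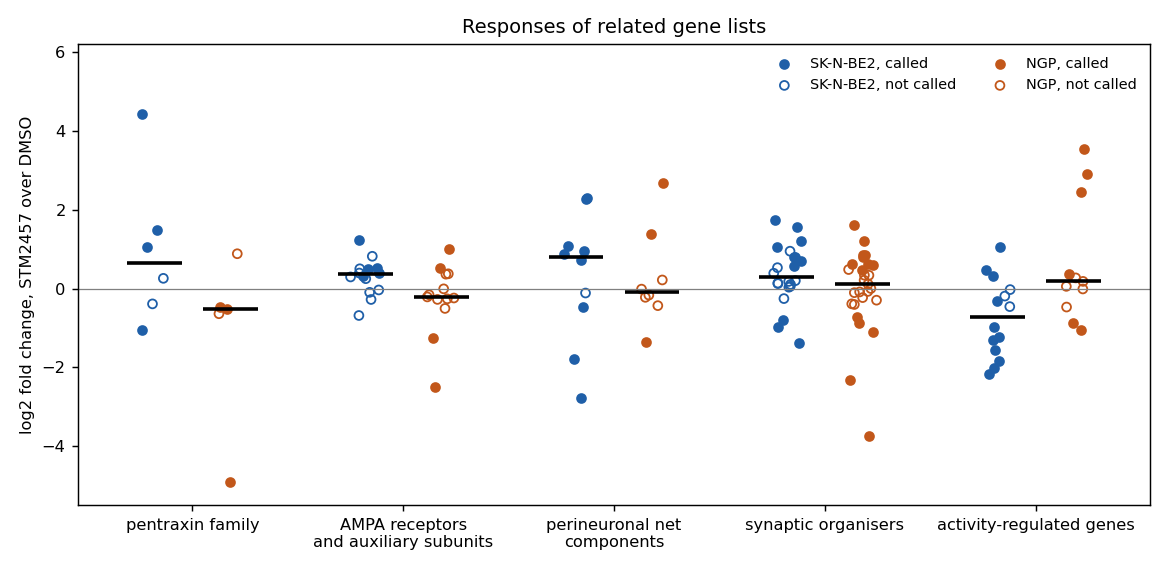
Log2 fold change of each tested gene (vertical axis) by list (horizontal axis), blue for SK-N-BE2 and orange for NGP, filled where called at an adjusted p under 0.05. Black bars are list medians, which lie at 0.65 and -0.52 for the pentraxin family and at -0.71 and 0.18 for the activity-regulated genes.

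The neighbours of NPTX1 and NWD2 were called in both directions in both lines. Of the 10 nearest genes, 5 on each side, those of NPTX1 had 1 called higher and 3 lower of 9 tested in SK-N-BE2 and 2 higher and 3 lower of 10 in NGP. Those of NWD2 reached as far as 10488.5 kb away, against 688 kb for NPTX1. The NWD2 neighbours had 2 higher and 1 lower of 7 in SK-N-BE2 and 3 higher and 1 lower of 7 in NGP. Over all genes 26.9% were higher and 27.8% lower in SK-N-BE2 (19.4% and 22.2% for NGP), and with so few neighbours nothing is read from these counts. The nearest neighbours of NPTX1, ENDOV at 28.7 kb and RPTOR at 67.0 kb, had log2 values of 0.18 and -0.33 with STM2457 in SK-N-BE2 (adjusted p = 0.175 and 0.00373) and of 0.07 and -0.31 in NGP (adjusted p = 0.799 and 0.0651). Without NGP DMSO replicate 1 both passed in NGP (ENDOV 0.29, adjusted p = 0.0489; RPTOR -0.40, adjusted p = 0.00116). C4orf19, which begins 4.46 kb beyond NWD2, stayed at or below 0.11 CPM as a group mean.

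Beside NPTX2, the neighbours had 0 called higher and 3 lower of 7 in SK-N-BE2 (all genes, 26.9% and 27.8%). In NGP 0 were called higher and 1 lower of 6 (all genes, 19.4% and 22.2%). TMEM130, 217 kb beyond it, fell in both lines (log2 -0.93, edgeR adjusted p = 6.53e-05 in SK-N-BE2; -3.63, adjusted p = 7.81e-06 in NGP). Around NPTXR, 3 were called higher and 1 lower of 8 in SK-N-BE2, and 0 higher and 2 lower of 8 in NGP. Beside the same shares of all genes, nothing is read from these small counts. DNAL4, a dynein light chain 24.3 kb before it, fell in both (-0.62, adjusted p = 0.000291; -0.69, adjusted p = 0.00696), and CBX6, a Polycomb protein 17.4 kb after it, was not called in either (-0.10, adjusted p = 0.331; -0.19, adjusted p = 0.202).

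Likeness of profile was measured as the root mean square distance between centred log2 CPM values over the 12 libraries, among 13298 candidates, and serves as description only. Nearest to NPTX1 were TJP3, a tight junction protein (distance 1.14), CYP2W1, a cytochrome P450 (1.33), LYPD1 (1.47) and HRK, a pro-apoptotic BH3-only protein (1.54). HRK ran at 2.80, 3.66, 53.2 and 4.12 CPM in SK-N-BE2 DMSO, SK-N-BE2 STM2457, NGP DMSO and NGP STM2457, so it shared the low treated NGP level but not the size of the SK-N-BE2 difference. For LYPD1, 29.7% of exon bases lie opposite GPR39, and its count is uncertain. These distances exceed 1 on the log2 scale, although TJP3 was at 0.997 with a prior count of 0.5. In SK-N-BE2 DMSO and STM2457, TJP3 (0.0253 and 0.189 CPM) and LYPD1 (0.0131 and 0.0695 CPM) were near the floor. The prior count weighs on distances there, so how closely they followed NPTX1 is uncertain.

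Nearest to NWD2 were SLC1A2, an astrocytic glutamate transporter (distance 0.816), CBLN2, a cerebellin synaptic organiser (0.885), CNTNAP2, a neurexin-family adhesion protein (0.902), and DAB1, the reelin adaptor (0.919). SLC1A2 ran at 0.304, 1.36, 45.5 and 26.5 CPM in the same group order. Of the 8 genes nearest NPTX1 or NWD2, TJP3, LYPD1 and CBLN2 were not tested in SK-N-BE2. Of the others, 3 (CYP2W1, SLC1A2 and DAB1) also rose in SK-N-BE2 but fell in NGP. Over all genes tested in both lines this share was 2.72%. The 8 were picked by likeness to genes chosen for this pattern, so the count is description only. The SK-N-BE2 calls of CYP2W1 and DAB1 rest on means below 1 CPM and were lost without several single libraries, with adjusted p up to 0.156 and 0.125, and the NGP call of SLC1A2 was lost without STM2457 replicate 2 (adjusted p = 0.0596). The CYP2W1 call was also lost with no filter (adjusted p = 0.0649). CNTNAP2 was called higher in SK-N-BE2 (1.40, adjusted p = 0.0172), a call lost without DMSO replicate 2 or 3 or STM2457 replicate 2 or 3 (adjusted p up to 0.0660). In NGP it was at -0.70 (adjusted p = 0.122) and passed without DMSO replicate 1 (-1.04, adjusted p = 3.25e-05).

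Nearest to NPTX2 were ZYG11A (distance 0.273), GCNT2 (0.352), RBM43 (0.356) and SLC25A43 (0.366), which all had 0 reads in NGP and are alike largely through those zeros. Among the 4 genes nearest to NPTXR were KIF5A, a neuronal kinesin (0.133), SMAP2 (0.133) and DAGLA, which makes an endocannabinoid (0.137). KIF5A, SMAP2 and DAGLA were each called higher in SK-N-BE2 (log2 0.36, 0.32 and 0.28) and lower in NGP (-0.42, -0.48 and -0.62). They were picked by their profile, so these directions are description only. The NGP call of KIF5A was lost without any one of 5 libraries (adjusted p up to 0.101), and that of DAGLA without STM2457 replicate 3 (0.0554). The SK-N-BE2 call of DAGLA was lost without any one STM2457 library (adjusted p up to 0.0689).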

How the data were processed

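RNA was measured in 12 libraries, 3 in each of 4 groups taken from the titles. Per the labels' protocols, poly(A) RNA was selected and made into cDNA with a SMART kit. The submitters' processing notes list FastQC 0.11.5, Trimmomatic 0.36, HISAT2 2.1.0 and Subread 1.5.3, with no order. Reads were counted by the authors with featureCounts 2.0.5, per the file headers, on exons of GENCODE 33 protein-coding genes, grouped by gene name, with no strand option. The deposited values are whole-number counts, not normalized. Read pairs were not counted as 1, so both reads of a fragment can count, and 72.1% to 75.4% of counts from 1 to 20 were even. Counting limits cover counting error only and are too narrow.

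The quasi-likelihood test of edgeR 4.0.16 in R 4.3.3 was run per line on 6 libraries, after filterByExpr with a minimum count of 10 and TMM scaling. P-values were adjusted over all genes tested (Benjamini-Hochberg), with a threshold of 0.05. Every adjusted p is from this tool. Differences between lines are contrasts of 4 group means over all 12 libraries. CPM were computed on the TMM scale, and TPM from the counts and the exon lengths in the files. The fits were tested on simulated data. Genes named beyond the 4 are the whole pentraxin and NTPase lists, the 3 called genes per list and line with the largest change (at least 1 CPM in a group), the nearest neighbour on each side and the 4 nearest profiles. Others named, such as markers, were chosen after their values were seen. The members and lists were chosen with earlier results of these data known. Some results that these rules name are not reported here.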

Additional observations from a re-analysis of the deposited data

Results flagged for a closer look

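The responses of NPTXR in the lines differed by 0.75 on the log2 scale, SK-N-BE2 over NGP, in the test of the difference over all 12 libraries (edgeR adjusted p = 0.00704). NPTXR itself was at 0.26 in SK-N-BE2 but at -0.48 in NGP. The corresponding differences of NPTX1 (9.36) and NWD2 (5.81) were the reason these genes were chosen, and they carry no test.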

How the results depend on the processing

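The alternatives were DESeq2, its size factors within edgeR, a filter at a mean of 1 CPM or none at all, a joint fit of all 12 libraries, the replicate block, each library left out in turn and, added after seeing the data, counts halved and rounded up. NPTX1 and NWD2 kept both directions in every alternative that gave a value. Without one library NPTX1 ranged between 4.28 and 4.66 in SK-N-BE2 (-5.09 to -4.76 in NGP), and NWD2 between 2.99 and 3.92 (-2.52 to -2.1 in NGP). The NPTX2 rise in SK-N-BE2 ran from 0.78 to 1.39 and was always called (highest adjusted p = 0.00960). Without one library NPTXR lay between 0.19 and 0.37 in SK-N-BE2 (-0.55 to -0.37 in NGP), crossing the threshold as given in the results. With the replicate block the baseline contrast takes each line at its fitted replicate 1 level, not at its group mean. For NPTXR this gave 0.032 (adjusted p = 0.883) beside -0.16 for the group means, so the 2 values do not measure the same baseline. No call of the 4 genes changed with the block. Same-numbered libraries of a line had correlations of -0.07 to 0.09, within the -0.15 to 0.12 of differently numbered ones. With 3 libraries per group this cannot decide whether the numbers pair them. With the block 7522 genes were called in SK-N-BE2, against 7665, and 5026 in NGP, against 5671. A further 3 signs turned on 1 NGP library: CNIH2 without DMSO replicate 1 (0.0058), CBLN2 without STM2457 replicate 2 (0.078, lowest -0.313 without STM2457 replicate 1) and ENDOV without DMSO replicate 2 (-0.086, highest 0.294 without DMSO replicate 1). On raw counts, without division by length, the SK-N-BE2 shares in DMSO and STM2457 moved to 0.976% and 12.9% for NPTX1, 27.6% and 35.2% for NPTX2, and 71.4% and 51.9% for NPTXR, since NPTX2 has the fewest exon bases. With a prior count of 0.5, 2 of the 4 genes nearest NWD2 stayed, and 3, 4 and 4 for NPTX1, NPTX2 and NPTXR. Depth limits NWD2 in SK-N-BE2 DMSO, with 8 reads over 3 libraries.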
